A study of Homo sapiens with 15 samples.

Results

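Neurons labelled dorsal were compared with the progenitor cultures labelled RABC, which were sampled at day 7. Both were made from 2 established human embryonic stem cell lines, H1 and HUES9, so the comparison held 4 of the 15 RNA-seq libraries of the series: 1 dorsal neuron library and 1 RABC library from each line. All cultures compared here were wild type by their labels and had been through neural induction from neuromesodermal progenitors, the axial stem cells that give rise to posterior spinal cord and to trunk muscle. The labels give no agents for RABC, no day for the dorsal neurons and no count of separate cultures. Each group is therefore 1 library per line. The p-values rest on a spread pooled over the 6 groups of the series with both lines, since the 4 libraries alone leave 1 residual degree of freedom. That spread also comes from other cultures, and it does not measure repeated cultures of a line. The nearest comparison in the series was that of neurons labelled ventral, also 1 library from each of H1 and HUES9, with day 7 progenitors labelled RASS from the same lines, again wild type after neural induction. Of 17999 genes in the table, 12458 reached 1 FPKM (a level scaled to transcript length and library depth) in at least 1 of the 4 libraries and were tested.

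In 2 of the 15 libraries, both labelled RASS, the data did not match the labelled cell line. No dorsal neuron or RABC library was among them, but the RASS libraries entered the fit behind every p-value, with their labelled lines. The count of genes called between dorsal neurons and RABC cultures was 2704. It was 3403 with the RASS lines exchanged and 2509 without both RASS libraries. Comparisons that use RASS levels are named as such below. The 4 libraries were similar in estimated depth. The H1 dorsal library was estimated at about 35.7 M mapped fragments, from the smallest value of each gene over the libraries after scaling for depth. Summed FPKM was 290306 and 292479 in the H1 and HUES9 dorsal neurons, against 331901 and 345045 in the RABC cultures. Between 11479 and 11627 genes reached 1 FPKM in dorsal neurons, against 11045 to 11161 in RABC cultures.

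The dorsal side of the developing spinal cord makes interneurons that relay and gate touch, pain and itch. BMP and WNT signals from the roof plate pattern its progenitors, in which bHLH factors such as ATOH1, NEUROG1 and PTF1A are used in separate stripes, and the neurons that leave each stripe carry their own homeodomain code. LBX1 marks the neurons born farther from the roof plate. Among these, PAX2, LHX1 and LHX5 accompany an inhibitory GABA or glycine transmitter type, whereas TLX3 and LMX1B accompany an excitatory glutamate type. The genes nearest the roof plate, such as BARHL1, LHX2, FOXD3 and ISL1, belong to neurons that do not express LBX1.

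Sequences of 2 gene groups are given first, promoters of dorsal factor and inhibitory transmitter genes and let-7 sites of LIN28 and let-7 axis genes. CAGCTG is an E-box, a core recognised by heterodimers of bHLH factors such as PTF1A, and it reads the same on both strands. In RefSeq promoters (GRCh38.p14, 250 bases before to 50 after the annotated start), it was found in 4 of the 19 promoters of dorsal factor and inhibitory transmitter genes that the table held, those of GAD2 and PAX8, which rose, and of POU4F1 and PRDM13, which were not called between dorsal neurons and RABC cultures. It occurred in 16.6% of the 10096 promoters of tested genes, a share near that of these 19. The GAD2 promoter is shown because it held the motif at 2 places, starting at positions -207 and 10 from the start site, and the PAX8 promoter because PAX8 had the largest difference between the dorsal and ventral change among the genes that passed the test of it; capitals mark CAGCTG.
GAD2 promoter, chr10:26216122-26216421, plus strand: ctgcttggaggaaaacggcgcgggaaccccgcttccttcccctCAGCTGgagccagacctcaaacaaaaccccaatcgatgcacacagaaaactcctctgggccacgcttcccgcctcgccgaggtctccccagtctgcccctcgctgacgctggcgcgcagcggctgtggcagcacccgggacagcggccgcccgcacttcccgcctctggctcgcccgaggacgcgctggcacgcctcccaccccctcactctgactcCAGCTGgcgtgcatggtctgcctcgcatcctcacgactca
PAX8 promoter, chr2:113278872-113279171, minus strand: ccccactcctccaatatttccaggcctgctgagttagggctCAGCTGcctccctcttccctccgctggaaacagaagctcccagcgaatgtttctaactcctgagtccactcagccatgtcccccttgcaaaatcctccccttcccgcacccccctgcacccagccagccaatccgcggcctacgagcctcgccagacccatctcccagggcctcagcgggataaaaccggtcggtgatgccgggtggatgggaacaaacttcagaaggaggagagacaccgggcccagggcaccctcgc

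Let-7 microRNAs accumulate as cells leave the progenitor state, and LIN28A and LIN28B block their maturation. The 9 mature let-7 family members found in RefSeq (GRCh38.p14) shared the seed GAGGUAG, which is capitalised in let-7a below and pairs with CTACCTC in a target. MicroRNAs were not measured in these libraries. CTACCTC occurred in 10.1% of the 12179 tested 3′ UTRs searched (1 principal transcript a gene, GENCODE v29, GRCh38) and in all 9 genes listed here as LIN28 and let-7 axis genes, a list of genes known for such sites. There were 6 in TRIM71, 4 each in LIN28B, HMGA2 and IGF2BP1 and 1 in each of the others. A 30-base window on the first site is shown for 4 members that fell, with the seed match in capitals.
hsa-let-7a-5p, chr9:94175962-94175983, plus strand: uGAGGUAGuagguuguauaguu
LIN28A 3′ UTR, chr1:26427347-26427376, plus strand: tgcacagcctattgaaCTACCTCatttttg
LIN28B 3′ UTR, chr6:105078811-105078840, plus strand: tacccggttgcaaagtCTACCTCatgcaag
HMGA2 3′ UTR, chr12:65963297-65963326, plus strand: cgccaacgttcgatttCTACCTCagcagca
TRIM71 3′ UTR, chr3:32891967-32891996, plus strand: caacattgcttaagtcCTACCTCatcttta

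Dorsal neurons differed from RABC cultures at 2704 genes, 21.7% of those tested, by limma with Benjamini-Hochberg adjustment at an adjusted p under 0.05: 1591 genes (12.8%) rose and 1113 (8.93%) fell. Among these, 1204 genes rose and 694 fell by at least 2-fold on the log2(FPKM + 1) scale, the scale of every log2 change here. The median log2 change over all tested genes was 0.03. All 2704 called genes had the same sign in both lines. A gene with opposite signs could hardly be called, so this is not support. Of all 12458 tested genes, 5303 were higher and 4767 lower in dorsal neurons in both lines. Across genes the change in H1 and that in HUES9 correlated at r = 0.77 (genes are not independent replicates). Single libraries changed the count: it was 454 without the H1 dorsal library, 543 without the HUES9 RABC, 1068 without the H1 RABC and 1809 without the HUES9 dorsal library, in fits that assume the lone remaining sample to vary like the other groups. For the gene lists below, a count of 2 or more is also given without a library where it moved by more than 1.5 times. Calls lost without a library are named at the end of the paragraph that gives the gene's test. Every list count stands against the shares of all tested genes, 12.8% higher and 8.93% lower. The filter also admits genes that reached 1 FPKM in dorsal neurons alone. Such genes, when near 0 in RABC cultures, could hardly fall, so a list without fallers is not support. Scaling all libraries to equal totals shifted the median log2 change of all genes to 0.22 and turned the split to 2057 higher and 720 lower, and quantile normalization gave a median of -0.07 with 1499 higher and 1620 lower. In bulk RNA, fewer cells of a type and less RNA per cell cannot be told apart.

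**Figure D1:**
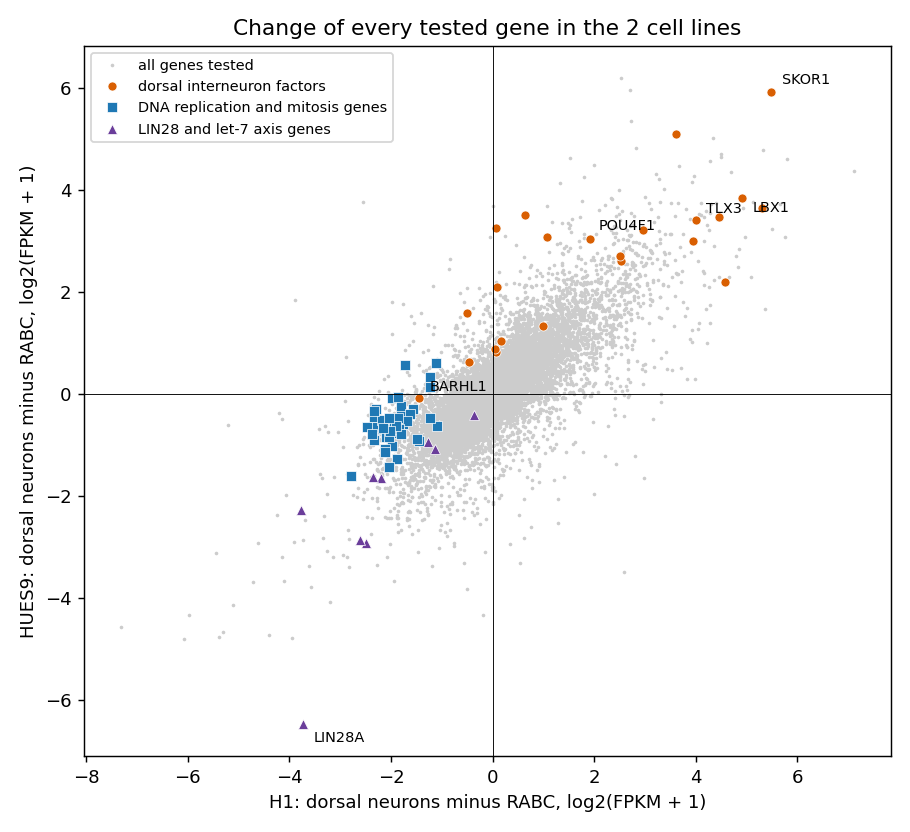
Each point is 1 of the tested genes, with the dorsal minus RABC difference in log2(FPKM + 1) in H1 on the x axis and in HUES9 on the y axis; coloured points are members of 3 gene lists. Most dorsal interneuron factors lie in the upper right, the LIN28 and let-7 axis genes in the lower left, and the replication genes to the left, with larger differences in H1 than in HUES9.

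The dorsal label was checked against 5 markers, of which 4 rose. Values of a pair are given throughout for H1 and then HUES9, and ± after a log2 change is its standard error. Statements that groups do not overlap describe the levels of single libraries only. The share of all genes without overlap was not taken, so these statements add nothing to the tests. LBX1 had 84.6 and 70.3 FPKM in dorsal neurons, against 1.85 and 3.96 FPKM in RABC cultures (log2 change 4.38 ± 0.81, adjusted p = 0.0092). TLX3 had 27.3 and 9.76 FPKM in dorsal neurons, against 0.774 and 0.0183 FPKM in RABC cultures (log2 change 3.70 ± 0.52, adjusted p = 0.00358). LMX1B had 39.7 and 19.9 FPKM in dorsal neurons, against 1.65 and 1.61 FPKM in RABC cultures (log2 change 3.47 ± 0.44, adjusted p = 0.00251). For each of these factors both dorsal libraries stood above both RABC libraries, and H1 dorsal neurons were the highest of the 4. GAD2, which makes GABA from glutamate, had 21.6 and 14.5 FPKM in dorsal neurons, against 0.0732 and 0.155 FPKM in RABC cultures (log2 change 4.07 ± 0.40, adjusted p = 0.00148), again without overlap. POU4F1, a homeodomain factor of excitatory dorsal classes and of sensory neurons, had 47.5 and 29.8 FPKM in dorsal neurons, against 11.9 and 2.76 FPKM in RABC cultures. Its groups did not overlap, but the test was not passed (log2 change 2.47 ± 0.82, adjusted p = 0.062), with the higher RABC level in H1. With a pseudocount of 0.1 LBX1 was not called. LBX1 was not called without the H1 dorsal or the HUES9 RABC library (adjusted p 0.0713 to 0.105).

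**Figure D2:**
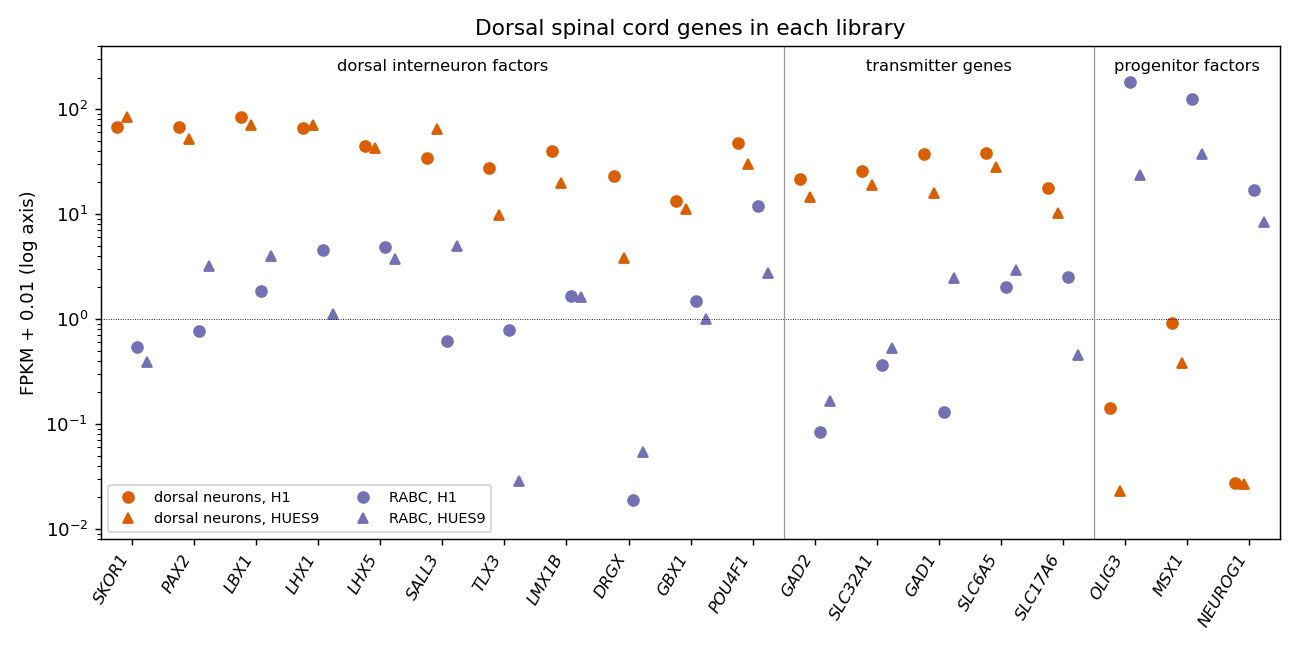
FPKM + 0.01 (log axis) of 19 genes in the 4 libraries, with dorsal neurons in orange left of RABC cultures in purple, circles for H1 and triangles for HUES9. Interneuron factors and transmitter genes are higher in dorsal neurons, and OLIG3, MSX1 and NEUROG1 are higher in RABC cultures.

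Of 33 dorsal interneuron factors, 23 were tested and the other 10 stayed under 1 FPKM in all 4 libraries. Among the tested, 12 (52.2%) rose and none fell, against 12.8% and 8.93% of all genes (9 to 11 with any 1 library left out), with a median log2 change of 2.47. Their summed level was 557 and 566 FPKM in dorsal neurons, against 71.1 and 49.7 FPKM in RABC cultures. The largest change belonged to SKOR1, a corepressor that partners LBX1 in the mouse, with 68.1 and 83.4 FPKM in dorsal neurons, against 0.537 and 0.383 FPKM in RABC cultures (log2 change 5.71 ± 0.38, adjusted p = 0.000477). Both dorsal libraries were far above both RABC libraries, which stayed under 1 FPKM.

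Most genes of the inhibitory code rose. LBX1, PAX2, LHX1, LHX5 and GBX1 of this list were also counted among the dorsal interneuron factors above. Of 12 tested genes of the dI4 and dI6 classes, 10 rose and none fell (4 without the H1 dorsal and 6 without the HUES9 RABC library). PAX2, which specifies the inhibitory type, had 68.1 and 51.5 FPKM in dorsal neurons, against 0.753 and 3.20 FPKM in RABC cultures (log2 change 4.47 ± 0.72, adjusted p = 0.00549). LHX1 had 66.4 and 70.7 FPKM in dorsal neurons, against 4.54 and 1.10 FPKM in RABC cultures (log2 change 4.35 ± 0.48, adjusted p = 0.00172). LHX5, its LIM-homeodomain relative, had 44.2 and 42.9 FPKM in dorsal neurons, against 4.80 and 3.74 FPKM in RABC cultures (log2 change 3.09 ± 0.65, adjusted p = 0.0148). In all 3 the lowest dorsal value lay several-fold above the highest RABC value. PTF1A, the bHLH switch toward the inhibitory type in progenitors, was low but rose, with 1.45 and 3.71 FPKM in dorsal neurons, against 0.219 and 0.218 FPKM in RABC cultures (log2 change 1.48 ± 0.29, adjusted p = 0.0113). GBX1 had 13.3 and 11.2 FPKM in dorsal neurons, against 1.48 and 0.988 FPKM in RABC cultures (log2 change 2.57 ± 0.26, adjusted p = 0.00148). The 2 tested genes of the list that did not pass were PRDM13, with 9.35 and 30.9 FPKM in dorsal neurons, against 13.8 and 9.57 FPKM in RABC cultures (adjusted p = 0.414), and BHLHE22, with 0.978 and 2.09 FPKM in dorsal neurons, against 0 and 0.224 FPKM in RABC cultures (adjusted p = 0.177). DMRT3 and WT1, which mark dI6 neurons, stayed under 1 FPKM in all 4 libraries. LHX5 was not called when any 1 of the 4 libraries was left out, PAX2 without the H1 dorsal library and PTF1A without the HUES9 RABC library (adjusted p 0.05 to 0.127).

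Genes for using GABA and glycine rose as well. GAD1, GAD2, SLC32A1 and SLC6A5 were among the risers both of this list and of the dI4 and dI6 list above. The counts of these lists are therefore not separate results. SLC32A1, the vesicular transporter for both transmitters, had 25.7 and 19.1 FPKM in dorsal neurons, against 0.355 and 0.517 FPKM in RABC cultures (log2 change 4.02 ± 0.66, adjusted p = 0.00598). GAD1 had 37.3 and 15.8 FPKM in dorsal neurons, against 0.12 and 2.43 FPKM in RABC cultures (log2 change 3.69 ± 0.78, adjusted p = 0.0147). SLC6A5, the neuronal glycine transporter, had 38.1 and 27.9 FPKM in dorsal neurons, against 2.02 and 2.95 FPKM in RABC cultures (log2 change 3.29 ± 0.70, adjusted p = 0.0153). None of the 3 genes overlapped between groups. In all, 6 of 9 tested transmission genes rose and none fell (2 without the H1 dorsal library), with a median log2 change of 3.29. The list also held SLC12A5, the chloride exporter that makes GABA hyperpolarising in mature neurons, with 7.75 and 2.74 FPKM in dorsal neurons, against 0.626 and 0.297 FPKM in RABC cultures (log2 change 1.98 ± 0.37, adjusted p = 0.00922), while SLC12A2, the importer of young neurons, had 2.995 and 3.56 FPKM in dorsal neurons, against 6.61 and 6.09 FPKM in RABC cultures (adjusted p = 0.15). GLRA2, the fetal glycine receptor subunit, had 30.9 and 29.1 FPKM in dorsal neurons, against 0.228 and 0.471 FPKM in RABC cultures (log2 change 4.53 ± 0.46, adjusted p = 0.00148), and 6 of 12 tested GABA and glycine receptor genes rose (3 without the HUES9 RABC library). SLC6A5 was not called when any 1 of the 4 libraries was left out, GAD1 without the H1 dorsal or the H1 RABC library, SLC12A5 without the H1 dorsal or the HUES9 RABC library and SLC32A1 without the H1 dorsal library (adjusted p 0.0514 to 0.145).

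Excitatory dorsal genes rose in part. Of 14 genes of the dI1, dI2, dI3 and dI5 classes, 8 were tested and 4 rose, with none lower (4 with any 1 library left out). These were TLX3, LMX1B, DRGX and SLC17A6. TLX3, LMX1B and DRGX were also counted among the dorsal interneuron factors above. DRGX, a partner of TLX3 in pain-relay neurons in the mouse, had 23.05 and 3.79 FPKM in dorsal neurons, against 0.00888 and 0.0441 FPKM in RABC cultures (log2 change 3.39 ± 0.56, adjusted p = 0.00589). The H1 dorsal library was several-fold above the HUES9 dorsal library, yet both stood above RABC. SLC17A6, the vesicular glutamate transporter of spinal excitatory neurons, had 17.6 and 10.3 FPKM in dorsal neurons, against 2.52 and 0.444 FPKM in RABC cultures (log2 change 2.68 ± 0.36, adjusted p = 0.00315). Genes of the classes born nearest the roof plate were low: LHX2, LHX9, BARHL2, FOXD3 and ISL1 stayed under 1 FPKM in all 4 libraries, and BARHL1 had 0.426 and 0 FPKM in dorsal neurons, against 2.91 and 0.0589 FPKM in RABC cultures (adjusted p = 0.251). TLX1 had 0.129 and 9.40 FPKM in dorsal neurons, against 0.0105 and 4.08 FPKM in RABC cultures, high in HUES9 and near 0 in H1 at both stages.

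Progenitor factors of the dorsal cord changed in both directions, with 5 of 20 tested lower (2 without the H1 dorsal or the H1 RABC library) and 4 higher (2 without the H1 dorsal or the HUES9 dorsal and 1 without the HUES9 RABC library). Lower genes included those of the most dorsal stripes. OLIG3, the bHLH factor of the dI1 to dI3 progenitors, had 0.132 and 0.0131 FPKM in dorsal neurons, against 179.7 and 23.3 FPKM in RABC cultures (log2 change -5.95 ± 1.19, adjusted p = 0.012). MSX1, a roof plate and BMP-responsive homeobox gene, had 0.897 and 0.37 FPKM in dorsal neurons, against 126 and 37.2 FPKM in RABC cultures (log2 change -5.43 ± 0.97, adjusted p = 0.0078). NEUROG1, which the dI2 stripe uses, had 0.0172 and 0.017 FPKM in dorsal neurons, against 16.9 and 8.40 FPKM in RABC cultures (log2 change -3.67 ± 0.73, adjusted p = 0.012). In each, both dorsal libraries lay under 1 FPKM and both RABC libraries far above it. ZIC2 and ZIC5, zinc finger genes of the early neural tube, fell as well, with 4.09 and 4.17 FPKM in dorsal neurons, against 61.6 and 52.7 FPKM in RABC cultures for ZIC2 (log2 change -3.50 ± 0.36, adjusted p = 0.00156) and 0.413 and 1.56 FPKM in dorsal neurons, against 20.2 and 18.2 FPKM in RABC cultures for ZIC5 (log2 change -3.41 ± 0.33, adjusted p = 0.00148). OLIG3 and NEUROG1 were not called without the H1 dorsal, the HUES9 dorsal or the H1 RABC library and MSX1 without the H1 dorsal or the H1 RABC library (adjusted p 0.0554 to 0.0948).

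Higher genes belonged to the stripes in between. GSX2, a factor of the dI3 to dI5 progenitors, had 12.6 and 15.4 FPKM in dorsal neurons, against 0.304 and 0.0168 FPKM in RABC cultures (log2 change 3.70 ± 0.22, adjusted p = 0.00029). GSX1 had 2.21 and 3.71 FPKM in dorsal neurons, against 0.0155 and 0.0154 FPKM in RABC cultures (log2 change 1.94 ± 0.49, adjusted p = 0.0261). PAX3 and PAX7, which all dorsal progenitors share, did not pass: PAX3 had 31.5 and 63.7 FPKM in dorsal neurons, against 49.9 and 21.7 FPKM in RABC cultures (adjusted p = 0.719) and PAX7 had 11.1 and 29.5 FPKM in dorsal neurons, against 10.1 and 4.82 FPKM in RABC cultures (adjusted p = 0.214), with overlap between groups for PAX3. ATOH1, of the dI1 stripe, had 0.0131 and 0 FPKM in dorsal neurons, against 16.9 and 0.406 FPKM in RABC cultures, with nearly all of its signal in 1 RABC library (adjusted p = 0.0741). GSX1 was not called when any 1 of the 4 libraries was left out (adjusted p 0.0762 to 0.167).

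WNT targets, which report a dorsalising signal, fell at 8 of 15 tested genes (3 without the H1 dorsal and 5 without the H1 RABC or the HUES9 RABC library, and 5 with no filter) and rose at none, with a median log2 change of -1.34 against 0.03 over all genes. LEF1, a transcription factor and target of WNT, had 0.455 and 1.88 FPKM in dorsal neurons, against 23.99 and 35.99 FPKM in RABC cultures (log2 change -3.89 ± 0.39, adjusted p = 0.00148). SP5 had 0 and 0.0453 FPKM in dorsal neurons, against 10.9 and 13.5 FPKM in RABC cultures (log2 change -3.69 ± 0.49, adjusted p = 0.0029). AXIN2, the feedback inhibitor used as a general WNT readout, had 10.3 and 12.8 FPKM in dorsal neurons, against 51.1 and 33.8 FPKM in RABC cultures (log2 change -1.77 ± 0.33, adjusted p = 0.00872). Neither group reached the other in any of the 3, and SP5 was near 0 in dorsal neurons. NOTUM, which inactivates WNT ligands, had 0.0131 and 0 FPKM in dorsal neurons, against 18.2 and 4.23 FPKM in RABC cultures (log2 change -3.32 ± 0.91, adjusted p = 0.0344). CCND1, listed as a WNT target, had 70.4 and 232 FPKM in dorsal neurons, against 36.4 and 71.2 FPKM in RABC cultures and was not called (adjusted p = 0.167). NOTUM was not called when any 1 of the 4 libraries was left out and AXIN2 without the H1 dorsal or the H1 RABC library (adjusted p 0.0651 to 0.226).

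Of the 13 tested BMP targets, MSX1 and ID3 fell (0 without the H1 dorsal or the H1 RABC library were called). ID3, an inhibitor of bHLH factors that BMP induces, had 3.85 and 8.03 FPKM in dorsal neurons, against 211 and 77.8 FPKM in RABC cultures (log2 change -4.29 ± 0.82, adjusted p = 0.0102). ID1 had 1.98 and 13.2 FPKM in dorsal neurons, against 108 and 20.7 FPKM in RABC cultures, lower in both dorsal libraries than in either RABC library, but did not pass (adjusted p = 0.0928). Retinoic acid genes went both ways. CRABP2, which carries retinoic acid to its receptor, had 11.1 and 13.9 FPKM in dorsal neurons, against 318 and 191 FPKM in RABC cultures (log2 change -4.20 ± 0.69, adjusted p = 0.00584). RARRES2, a retinoid-induced secreted protein, had 1.72 and 5.87 FPKM in dorsal neurons, against 171 and 138 FPKM in RABC cultures (log2 change -5.16 ± 0.87, adjusted p = 0.00649). DHRS3, which turns retinaldehyde back to retinol, had 67.03 and 139 FPKM in dorsal neurons, against 9.48 and 1.251 FPKM in RABC cultures (log2 change 4.33 ± 0.78, adjusted p = 0.00805). The direction thus differed between genes of this list, and RARB, the receptor that retinoic acid induces, had 21.996 and 25.5 FPKM in dorsal neurons, against 14.9 and 3.96 FPKM in RABC cultures without a call (adjusted p = 0.148). ID3 was not called without the H1 dorsal or the H1 RABC library, DHRS3 without the HUES9 dorsal or the HUES9 RABC library and CRABP2 and RARRES2 without the H1 dorsal library (adjusted p 0.05 to 0.112).

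FGF feedback genes rose at 3 and fell at 1 of 15 tested genes (0 without the H1 dorsal, 1 without the HUES9 dorsal or the H1 RABC and 5 without the HUES9 RABC library rose). ETV5 had 6.82 and 19.5 FPKM in dorsal neurons, against 0.0623 and 3.70 FPKM in RABC cultures (log2 change 2.50 ± 0.68, adjusted p = 0.0339), with the lowest value in the H1 RABC library. GLI1, the hedgehog-induced factor and the only 1 of 7 tested hedgehog genes to pass, had 0.0357 and 0.176 FPKM in dorsal neurons, against 2.75 and 2.74 FPKM in RABC cultures (log2 change -1.76 ± 0.28, adjusted p = 0.00522). NOTCH pathway genes stayed near the background, with 3 higher (1 without the H1 dorsal or the HUES9 dorsal and 0 without the HUES9 RABC library) and 1 lower of 24 tested and a median log2 change of 0.20. Among them HES1, a NOTCH effector that holds progenitors undifferentiated, rose, with 13.9 and 31.6 FPKM in dorsal neurons, against 4.29 and 2.21 FPKM in RABC cultures (log2 change 2.42 ± 0.42, adjusted p = 0.00701). ETV5 was not called without the H1 dorsal, the HUES9 dorsal or the H1 RABC library and HES1 without the HUES9 RABC library (adjusted p 0.0604 to 0.199).

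Transcripts of general neural progenitors were also found in dorsal neuron cultures. SOX2 had 133 and 185 FPKM in dorsal neurons, against 134.7 and 139.8 FPKM in RABC cultures (adjusted p = 0.554). VIM had 727 and 1326 FPKM in dorsal neurons, against 1261 and 1009.8 FPKM in RABC cultures (adjusted p = 0.715). Of 21 tested progenitor and radial glia genes, 2 rose and 2 fell, with a median log2 change of -0.17. The risers were SOX9, a radial glia and gliogenic factor with 46.8 and 67.5 FPKM in dorsal neurons, against 13.5 and 5.22 FPKM in RABC cultures (log2 change 2.59 ± 0.61, adjusted p = 0.0206), and HES1. The fallers were PRTG, an early neural tube receptor with 0.205 and 0.553 FPKM in dorsal neurons, against 17.6 and 41.9 FPKM in RABC cultures (log2 change -4.37 ± 0.65, adjusted p = 0.00436), and HMGA2. The counts of this list moved with single libraries (1 without the H1 dorsal or the HUES9 dorsal and 0 without the HUES9 RABC library higher; 0 without the H1 dorsal library lower). SOX9 was not called without the H1 dorsal, the HUES9 dorsal or the HUES9 RABC library and PRTG without the H1 dorsal library (adjusted p 0.0552 to 0.163).

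Neuronal differentiation factors rose at 14 of 25 tested proneural and early neuron genes and fell at NEUROG1 alone (3 without the H1 dorsal or the HUES9 RABC and 8 without the HUES9 dorsal library, and 8 with a pseudocount of 0.1 and 9 with no filter rose), with a median log2 change of 1.83. MYT1, a zinc finger factor of newborn neurons, had 43.1 and 42.2 FPKM in dorsal neurons, against 6.83 and 2.72 FPKM in RABC cultures (log2 change 3.01 ± 0.51, adjusted p = 0.00652). SOX4, a factor of early neurons, had 317 and 215 FPKM in dorsal neurons, against 46.9 and 23.8 FPKM in RABC cultures (log2 change 2.93 ± 0.34, adjusted p = 0.00198). NEUROD6 had 29.4 and 11.6 FPKM in dorsal neurons and was listed at 0 in both RABC libraries (adjusted p = 0.00148). All 3 separated the groups completely. NEUROG2, the general neurogenic bHLH factor, went the other way in level, with 14.5 and 18.7 FPKM in dorsal neurons, against 62.7 and 48.7 FPKM in RABC cultures, but missed the threshold (adjusted p = 0.0523). MYT1 was not called without the H1 dorsal or the HUES9 RABC library (adjusted p 0.0631 to 0.0714).

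Among 13 factors of spinal birth order, 6 rose and none fell (3 without the H1 dorsal or the HUES9 RABC library). In the spinal cord ONECUT genes mark early-born, ZFHX genes intermediate and NFI and NEUROD2 or NEUROD6 genes late-born neurons. NFIB had 12.2 and 11.4 FPKM in dorsal neurons, against 0.155 and 0.41 FPKM in RABC cultures (log2 change 3.33 ± 0.39, adjusted p = 0.00193). NFIA had 6.99 and 8.67 FPKM in dorsal neurons, against 0.00801 and 0.0318 FPKM in RABC cultures (log2 change 3.11 ± 0.35, adjusted p = 0.00175). NFIX had 5.35 and 7.39 FPKM in dorsal neurons, against 0.00843 and 0.0377 FPKM in RABC cultures (log2 change 2.83 ± 0.52, adjusted p = 0.00889). The NFI genes were under 1 FPKM in both RABC cultures and above 5 FPKM in both dorsal libraries. ONECUT1, by contrast, had 0.44 and 2.14 FPKM in dorsal neurons, against 5.56 and 8.23 FPKM in RABC cultures, without a call (adjusted p = 0.247). NFIX was not called without the H1 dorsal or the HUES9 RABC library (adjusted p 0.0814 to 0.0844).

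RABC cultures also held neuronal transcripts, as shown by TUBB3 and STMN2. TUBB3, the neuronal tubulin, had 610.0 and 529.7 FPKM in dorsal neurons, against 569 and 290.2 FPKM in RABC cultures and was not called (adjusted p = 0.343), with the H1 RABC library above the HUES9 dorsal library. STMN2, a growth cone protein of neurons, had 653 and 451 FPKM in dorsal neurons, against 140.0 and 86.3 FPKM in RABC cultures (adjusted p = 0.177). MAPT, which encodes the axonal protein tau, had 90.1 and 49.8 FPKM in dorsal neurons, against 3.98 and 3.24 FPKM in RABC cultures (log2 change 3.89 ± 0.47, adjusted p = 0.00216). INA, an early intermediate filament, had 357 and 261 FPKM in dorsal neurons, against 67.7 and 46.5 FPKM in RABC cultures (log2 change 2.42 ± 0.34, adjusted p = 0.00332). GAP43, a growth cone protein, had 136 and 111 FPKM in dorsal neurons, against 19.1 and 10.3 FPKM in RABC cultures (log2 change 3.04 ± 0.41, adjusted p = 0.00306). The neurofilament genes NEFL and NEFH did not follow. NEFL had 39.2 and 29.5 FPKM in dorsal neurons, against 31.7 and 36.7 FPKM in RABC cultures (adjusted p = 0.991, with a sign that turns under equal totals). NEFH fell, with 0.886 and 0.564 FPKM in dorsal neurons, against 3.38 and 5.99 FPKM in RABC cultures (log2 change -1.69 ± 0.39, adjusted p = 0.0199). Over the list, 14 of 30 tested genes rose and 1 fell (4 without the H1 dorsal, 9 without the HUES9 dorsal or the H1 RABC and 5 without the HUES9 RABC library, and 22 fitted on the 4 libraries alone rose). NEFH was not called without the H1 dorsal, the HUES9 dorsal or the HUES9 RABC library (adjusted p 0.1 to 0.162).

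Synaptic genes formed the largest rising group by number, which also reflects the length of the list. Their share higher was 64.4%, against 12.8% of all tested genes. That share was 70.8% for sodium and calcium channel genes and 83.3% for genes of the dI4 and dI6 classes. Of 45 tested, 29 rose and none fell, with a median log2 change of 1.62; the count was 7 without the H1 dorsal, 13 without the H1 RABC and 10 without the HUES9 RABC library. SYP, a vesicle membrane protein, had 54.8 and 35.4 FPKM in dorsal neurons, against 12.8 and 9.39 FPKM in RABC cultures (log2 change 1.91 ± 0.32, adjusted p = 0.00649). LRRTM2, a postsynaptic adhesion protein, had 23.04 and 12.8 FPKM in dorsal neurons, against 0.405 and 0.208 FPKM in RABC cultures (log2 change 3.80 ± 0.63, adjusted p = 0.00602). Both stood clear of RABC in both lines, with LRRTM2 under 1 FPKM in both RABC cultures. Other members with high dorsal levels were RAB3A, with 84.8 and 46.2 FPKM in dorsal neurons, against 9.04 and 5.65 FPKM in RABC cultures (log2 change 2.96 ± 0.58, adjusted p = 0.0111), and UNC13A, which primes vesicles for release, with 14.4 and 5.98 FPKM in dorsal neurons, against 0.605 and 0.483 FPKM in RABC cultures (log2 change 2.75 ± 0.37, adjusted p = 0.00315). RAB3A was not called without the H1 dorsal, the H1 RABC or the HUES9 RABC library and SYP and LRRTM2 without the H1 dorsal or the HUES9 RABC library (adjusted p 0.05 to 0.112).

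Receptors and channels rose alongside. Glutamate receptor genes rose at 13 of 19 tested (8 without the H1 RABC and 7 without the HUES9 RABC library, and 8 with a filter of 5 FPKM), led by GRIA2, the AMPA receptor subunit that limits calcium entry, with 56.6 and 10.9 FPKM in dorsal neurons, against 1.79 and 0.605 FPKM in RABC cultures (log2 change 3.63 ± 0.61, adjusted p = 0.00637). GRIN1, the obligate NMDA receptor subunit, had 9.64 and 2.83 FPKM in dorsal neurons, against 0.0872 and 0.0255 FPKM in RABC cultures (log2 change 2.60 ± 0.37, adjusted p = 0.00388). Sodium and calcium channel genes rose at 17 of 24 tested (3 without the H1 dorsal, 9 without the H1 RABC and 5 without the HUES9 RABC library). SCN3A, the sodium channel of fetal neurons, had 19.5 and 10.6 FPKM in dorsal neurons, against 2.21 and 0.337 FPKM in RABC cultures (log2 change 2.90 ± 0.48, adjusted p = 0.00621). SCN2A had 7.58 and 2.92 FPKM in dorsal neurons, against 0.238 and 0.0972 FPKM in RABC cultures (log2 change 2.31 ± 0.35, adjusted p = 0.00465). Potassium channel genes rose at 15 of 26 tested (3 without the H1 dorsal, 4 without the H1 RABC and 2 without the HUES9 RABC library, and 9 fitted on the 4 libraries alone, 9 with no filter and 5 with a filter of 5 FPKM), most of them from low levels, such as KCNC2, with 14.2 and 1.39 FPKM in dorsal neurons, against 0.00441 and 0.00875 FPKM in RABC cultures (log2 change 2.58 ± 0.62, adjusted p = 0.022). No member of these 3 lists fell, but most passed the filter through dorsal neurons. In a dorsal library, 19 of 19 glutamate receptor, 23 of 24 sodium and calcium and 25 of 26 potassium channel genes reached 1 FPKM. Genes near 0 in RABC cultures could hardly fall, so no conclusion is drawn from this. SCN3A was not called without the H1 dorsal or the HUES9 RABC library, KCNC2 without the H1 RABC or the HUES9 RABC library and GRIA2 without the HUES9 RABC library (adjusted p 0.0554 to 0.114).

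Peptide and secretory genes rose at 8 of 23 tested (2 without the H1 dorsal and 4 without the H1 RABC or the HUES9 RABC library) and fell at 1. TAC1, the precursor of substance P, had 9.03 and 3.51 FPKM in dorsal neurons, against 0.213 and 0.0264 FPKM in RABC cultures (log2 change 2.59 ± 0.53, adjusted p = 0.0128). VGF had 36.8 and 11.7 FPKM in dorsal neurons, against 0.304 and 0.769 FPKM in RABC cultures (log2 change 3.85 ± 0.68, adjusted p = 0.00751). CHGB, a granin of dense-core vesicles, had 177 and 27.4 FPKM in dorsal neurons, against 6.04 and 4.80 FPKM in RABC cultures (log2 change 3.48 ± 0.61, adjusted p = 0.00722). H1 dorsal neurons were the highest for all 3. NPY had 179.8 and 22.7 FPKM in dorsal neurons, against 0.305 and 0.152 FPKM in RABC cultures, without overlap but far apart between lines, and was not called (adjusted p = 0.0574). The single faller was NPPC, which encodes the C-type natriuretic peptide, with 1.13 and 0.528 FPKM in dorsal neurons, against 14.1 and 15.001 FPKM in RABC cultures (log2 change -3.11 ± 0.48, adjusted p = 0.00498). TAC1 was not called without the H1 dorsal, the H1 RABC or the HUES9 RABC library, VGF without the H1 dorsal or the H1 RABC library and CHGB without the HUES9 RABC library (adjusted p 0.0508 to 0.125).

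Axon guidance genes were called at 10 higher and 1 lower of 54 tested (3 without the H1 dorsal or the HUES9 RABC library, and 17 fitted on the 4 libraries alone and 6 with no filter higher), where 12.8% and 8.93% of all genes were called. L1CAM, an axonal adhesion molecule, had 79.01 and 56.6 FPKM in dorsal neurons, against 11.3 and 4.85 FPKM in RABC cultures (log2 change 2.9997 ± 0.53, adjusted p = 0.00751). PLXNA4, a semaphorin receptor, had 11.9 and 7.11 FPKM in dorsal neurons, against 0.318 and 0.0425 FPKM in RABC cultures (log2 change 3.12 ± 0.36, adjusted p = 0.00183). NTN1, the midline attractant, had 3.65 and 35.8 FPKM in dorsal neurons, against 0.16 and 0.637 FPKM in RABC cultures (log2 change 3.25 ± 0.88, adjusted p = 0.0334). The HUES9 dorsal library held most of the NTN1 signal. DCC, the netrin receptor of commissural axons, had 34.5 and 26.5 FPKM in dorsal neurons, against 31.9 and 21.1 FPKM in RABC cultures (adjusted p = 0.876), with overlapping levels. NTN1 was not called when any 1 of the 4 libraries was left out and L1CAM without the H1 dorsal or the HUES9 RABC library (adjusted p 0.075 to 0.203).

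RNA-processing and chromatin genes that switch as neurons form moved in opposite directions by member. PTBP1, which represses neuronal exons in progenitors, fell, with 38.8 and 66.1 FPKM in dorsal neurons, against 160.0 and 161 FPKM in RABC cultures (log2 change -1.64 ± 0.26, adjusted p = 0.00551). PTBP2, its neuronal paralogue, rose, with 59.3 and 60.4 FPKM in dorsal neurons, against 26.3 and 28.7 FPKM in RABC cultures (log2 change 1.10 ± 0.26, adjusted p = 0.0216). RBFOX1, a splicing factor of neurons, had 16.7 and 12.4 FPKM in dorsal neurons, against 0.823 and 0.471 FPKM in RABC cultures (log2 change 3.24 ± 0.32, adjusted p = 0.00148). PTBP1 had the only lower call among 20 tested splicing regulators, of which 10 rose (4 without the H1 dorsal or the HUES9 RABC, 5 without the HUES9 dorsal and 6 without the H1 RABC library, and 6 with no filter). In the BAF chromatin remodeler, the progenitor subunit ACTL6A fell, with 29.001 and 44.3 FPKM in dorsal neurons, against 65.8 and 71.95 FPKM in RABC cultures (log2 change -0.92 ± 0.21, adjusted p = 0.0191). ACTL6B, which replaces it in neurons, rose, with 50.5 and 28.5 FPKM in dorsal neurons, against 4.69 and 1.86 FPKM in RABC cultures (log2 change 3.27 ± 0.44, adjusted p = 0.00298). Over that complex 6 of 20 tested subunits rose (3 without the H1 dorsal or the HUES9 RABC library) and ACTL6A alone fell. PTBP2 was not called when any 1 of the 4 libraries was left out, ACTL6A without the H1 dorsal, the H1 RABC or the HUES9 RABC library and PTBP1 without the HUES9 RABC library (adjusted p 0.05 to 0.169).

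**Figure D3:**
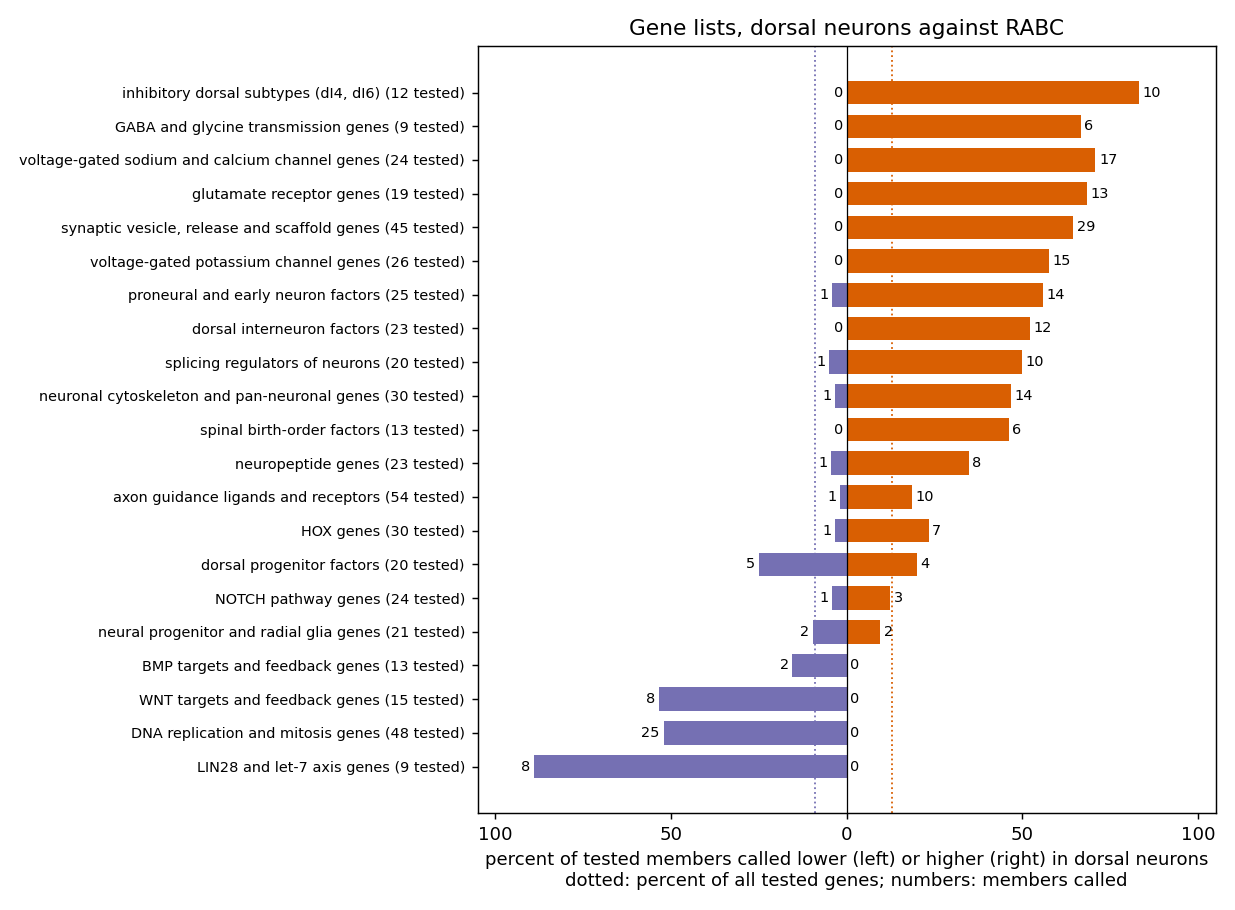
For 21 gene lists, the percent of tested members called higher (orange, right) or lower (purple, left) in dorsal neurons against RABC cultures, with the number of members called beside each bar and the percent of all tested genes as dotted lines. Neuronal lists extend to the right, and the LIN28 and let-7 axis, WNT and replication lists to the left.

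Members of the LIN28 and let-7 axis fell at 8 of 9 genes and rose at none, with a median log2 change of -1.99 (3 without the H1 dorsal or the HUES9 RABC and 5 without the H1 RABC library). LIN28A had 0.26 and 0.15 FPKM in dorsal neurons, against 15.7 and 101 FPKM in RABC cultures (log2 change -5.10 ± 0.80, adjusted p = 0.00499). LIN28B had 1.53 and 2.41 FPKM in dorsal neurons, against 13.2 and 24.8 FPKM in RABC cultures (log2 change -2.71 ± 0.36, adjusted p = 0.00298). HMGA2, a chromatin protein of fetal progenitors, had 2.06 and 16.2 FPKM in dorsal neurons, against 41.04 and 82.3 FPKM in RABC cultures (log2 change -3.03 ± 0.58, adjusted p = 0.0108). TRIM71, an RNA-binding repressor, had 1.24 and 2.21 FPKM in dorsal neurons, against 12.6 and 22.4 FPKM in RABC cultures (log2 change -2.73 ± 0.29, adjusted p = 0.00156). In each, both dorsal libraries lay below both RABC libraries, and LIN28A was under 1 FPKM in dorsal neurons. IGF2BP2, with 20.1 and 21.8 FPKM in dorsal neurons, against 26.1 and 29.5 FPKM in RABC cultures, was the member that did not pass (adjusted p = 0.286). The 8 that fell and IGF2BP2 all carried the let-7 seed match shown for the leading genes. With equal totals 6 of the 9 were called. HMGA2 was not called without the H1 dorsal or the HUES9 RABC library and LIN28A without the H1 dorsal library (adjusted p 0.0513 to 0.0906).

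Replication and mitosis genes fell at 25 of 48 genes and rose at none, but the size differed by line. The median log2 change was -1.93 in H1 and -0.64 in HUES9, and their summed level was 736 and 2044 FPKM in dorsal neurons, against 2871 and 3072 FPKM in RABC cultures. CDT1, a replication licensing factor, had 3.77 and 11.2 FPKM in dorsal neurons, against 31.9 and 36.2 FPKM in RABC cultures (log2 change -2.20 ± 0.38, adjusted p = 0.00716). MCM2, of the replicative helicase, had 21.7 and 67.6 FPKM in dorsal neurons, against 114 and 128 FPKM in RABC cultures (log2 change -1.63 ± 0.41, adjusted p = 0.0264). MKI67, the proliferation marker, had 22.2 and 67.2 FPKM in dorsal neurons, against 87.4 and 71.3 FPKM in RABC cultures (adjusted p = 0.289). For MKI67 the HUES9 dorsal library was close to both RABC libraries while the H1 dorsal library was well below. The list count rested on single libraries: it was 1 without the H1 dorsal, 43 without the HUES9 dorsal, 2 without the H1 RABC and 0 without the HUES9 RABC library, and 15 fitted on the 4 libraries alone, 5 with no filter, 14 with the filter over all 15 libraries and 10 with equal totals. MCM2 was not called without the H1 dorsal, the H1 RABC or the HUES9 RABC library and CDT1 without the HUES9 RABC library (adjusted p 0.0604 to 0.177).

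**Figure D4:**
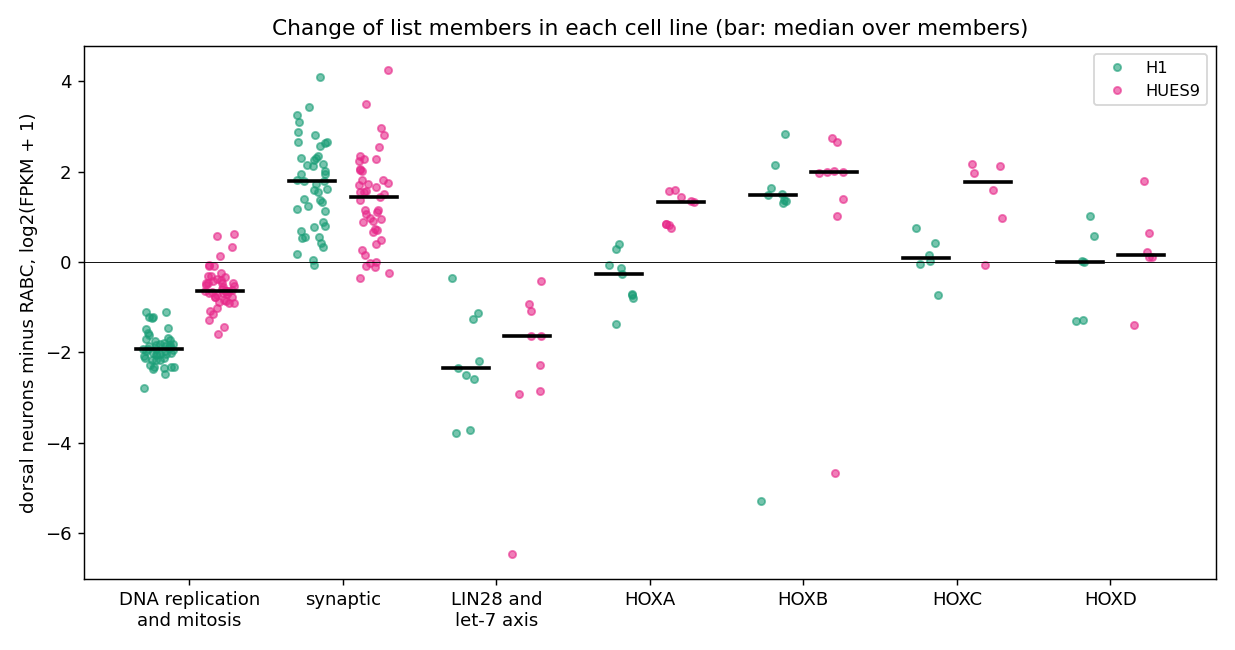
Points are list members, with the dorsal minus RABC difference in log2(FPKM + 1) in H1 (green) and HUES9 (pink), and black bars are medians over members. Replication genes fell further in H1, at a median of -1.93 against -0.64 in HUES9, HOXB genes were higher in both lines except HOXB1, and HOXA and HOXC genes differed by line.

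Among D cyclins and CDK inhibitors, 3 rose (0 without the H1 dorsal or the HUES9 RABC and 1 without the HUES9 dorsal library) and 1 fell of 11 tested. CCND2 had 3.54 and 12.9 FPKM in dorsal neurons, against 75.2 and 54.04 FPKM in RABC cultures (log2 change -3.03 ± 0.42, adjusted p = 0.00341). CDKN2D, a CDK inhibitor of postmitotic neurons, had 27.98 and 28.8 FPKM in dorsal neurons, against 6.11 and 4.55 FPKM in RABC cultures (log2 change 2.23 ± 0.36, adjusted p = 0.00549). CDKN1B, which halts cells before replication, had 54.2 and 51.9 FPKM in dorsal neurons, against 30.3 and 26.6 FPKM in RABC cultures (log2 change 0.88 ± 0.21, adjusted p = 0.0219). Groups did not overlap in any of the 3. CDKN1B was not called when any 1 of the 4 libraries was left out and CDKN2D without the H1 dorsal or the HUES9 RABC library (adjusted p 0.053 to 0.163).

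HOX genes give position along the body axis, with low paralogue numbers at the hindbrain end. Of 30 tested HOX genes, 7 rose and 1 fell (2 without the H1 dorsal and 3 without the HUES9 RABC library rose, and 10 with equal totals). All calls lay in the HOXB cluster, where 7 of 9 tested genes rose. Its summed level was 1737 and 1252 FPKM in dorsal neurons, against 581 and 425 FPKM in RABC cultures. HOXB8 had 234 and 131 FPKM in dorsal neurons, against 32.2 and 18.52 FPKM in RABC cultures (log2 change 2.79 ± 0.38, adjusted p = 0.00313). HOXB5 had 116 and 96.3 FPKM in dorsal neurons, against 25.2 and 14.4 FPKM in RABC cultures (log2 change 2.41 ± 0.38, adjusted p = 0.00526). HOXB9, the most abundant of the cluster, had 880.0 and 493 FPKM in dorsal neurons, against 284 and 187 FPKM in RABC cultures (log2 change 1.51 ± 0.36, adjusted p = 0.0208). HOXB1 was the exception, with 0.328 and 1.17 FPKM in dorsal neurons, against 51.3 and 54.1 FPKM in RABC cultures (log2 change -4.98 ± 0.23, adjusted p = 6.16e-05). Its RABC levels were alike in both lines and its dorsal levels near 1 FPKM or below. HOXB9 was not called without the H1 dorsal, the H1 RABC or the HUES9 RABC library and HOXB5 without the H1 dorsal or the HUES9 RABC library (adjusted p 0.0525 to 0.182).

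The other clusters had no call among 9 HOXA, 6 HOXC and 6 HOXD genes tested. By line, the median change of HOXA genes was -0.26 in H1 and 1.33 in HUES9, and that of HOXC genes was 0.09 in H1 and 1.78 in HUES9. The more posterior genes followed the line instead of the stage: HOXC10 had 0.162 and 51.6 FPKM in dorsal neurons, against 0.143 and 25.95 FPKM in RABC cultures, and HOXD9 had 0.0155 and 29.5 FPKM in dorsal neurons, against 0 and 18.55 FPKM in RABC cultures. HUES9 was high and H1 near 0 in both stages for these 2 genes.

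Against ventral neurons, dorsal neurons differed at 304 of 12753 tested genes (2.38%), with 99 higher (0.776%) and 205 lower (1.61%) by the same limma fit. Of 24 tested dorsal interneuron factors, 13 were higher and none lower. LBX1 had 84.6 and 70.3 FPKM in dorsal neurons, against 1.07 and 0.0339 FPKM in ventral neurons (log2 difference 5.74 ± 0.81, adjusted p = 0.0134). POU4F1 had 47.5 and 29.8 FPKM in dorsal neurons, against 0.399 and 0.218 FPKM in ventral neurons (log2 difference 4.89 ± 0.82, adjusted p = 0.0225), so that all 5 markers passed in this comparison. GSX2 had 12.6 and 15.4 FPKM in dorsal neurons and was listed at 0 in both ventral libraries (adjusted p = 0.000176). Lower genes included motor neuron genes, at 6 of 14 tested. Neurofilament NEFL had 39.2 and 29.5 FPKM in dorsal neurons, against 476 and 715 FPKM in ventral neurons (log2 difference -4.06 ± 0.23, adjusted p = 0.000176). No synaptic gene of 45 tested passed in either direction, and 6 had an unadjusted p under 0.05. The count of 304 and its balance depended on single libraries. It was 57 when fitted on these 4 libraries alone (31 higher, 26 lower), 89 without the HUES9 dorsal library (50 higher, 39 lower), 336 without the H1 dorsal library (209 higher, 127 lower) and 398 without the HUES9 ventral library (59 higher, 339 lower). Quantile normalization gave 203 higher and 247 lower.

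The change on the dorsal route (dorsal neurons minus RABC) was tested directly against that on the ventral route (ventral neurons minus RASS). Of 12458 genes tested, 28 passed (0.225%), 16 with the dorsal change above the ventral. The genes tested were those that reached 1 FPKM in a dorsal neuron or RABC library. Genes that reached it only in ventral neuron or RASS libraries were not tested, so the filter bears on the balance of directions. MAB21L1, a factor of eye and neural development, had 40.3 and 28.5 FPKM in dorsal neurons, against 0.0292 and 0.0677 FPKM in RABC cultures, and 0.171 and 0.0724 FPKM in ventral neurons, against 0.567 and 0.144 FPKM in RASS cultures (difference 5.31 ± 0.32, adjusted p = 0.00121). Of these 8 libraries, the 2 of dorsal neurons alone were high. SKOR1 had 1.79 and 0.385 FPKM in ventral neurons, against 0.182 and 1.07 FPKM in RASS cultures (difference 5.38 ± 0.53, adjusted p = 0.0158). GAD2 had 1.42 and 0.228 FPKM in ventral neurons, against 0.24 and 1.12 FPKM in RASS cultures (difference 3.98 ± 0.57, adjusted p = 0.0401). In the opposite direction, NEFL had 476 and 715 FPKM in ventral neurons, against 52.4 and 48.99 FPKM in RASS cultures (difference -3.50 ± 0.32, adjusted p = 0.0126). The RASS libraries are the 2 whose line labels were in doubt, and no gene passed limma when only these 8 libraries were fitted (1642 had an unadjusted p under 0.05). The balance also turned, to 27 above and 73 below the ventral change with no filter, 31 and 46 with the filter over all 15 libraries, 5 and 13 without the HUES9 RABC library and 11 and 17 without the RASS library labelled HUES9.

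**Figure D5:**
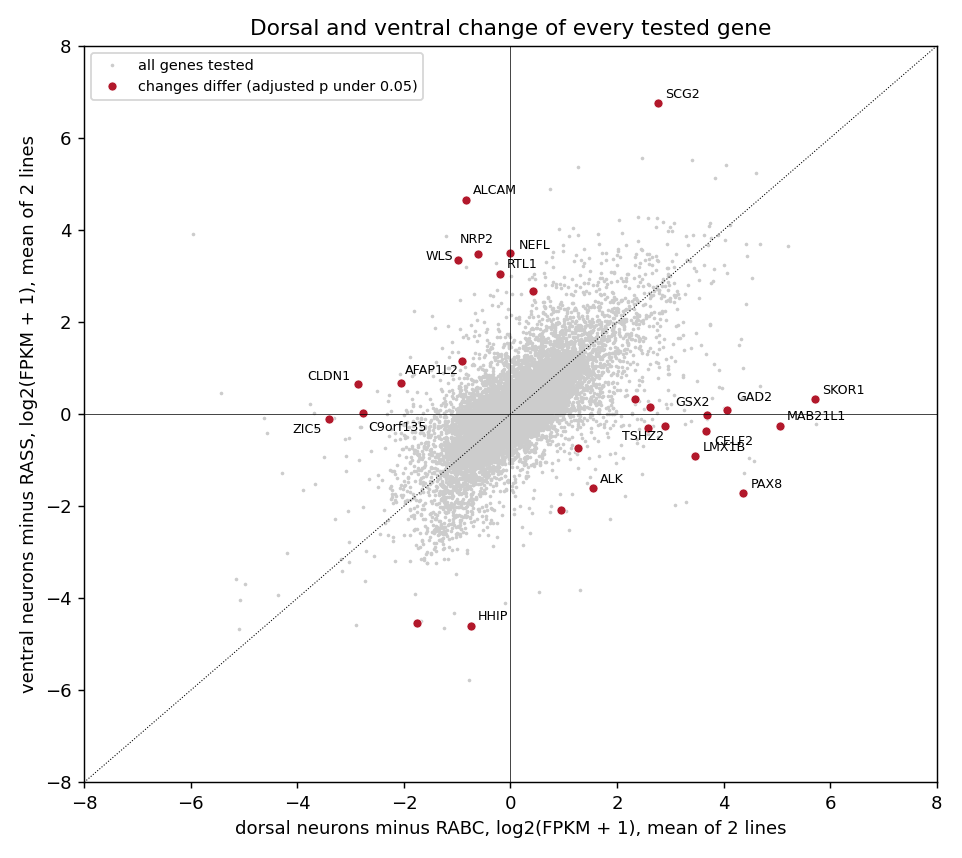
Each point is 1 tested gene, with the dorsal minus RABC change on the x axis and the ventral minus RASS change on the y axis, both in log2(FPKM + 1) as means of 2 lines; the dotted line marks equal change. The 28 red genes passed the test of the difference, with SKOR1, MAB21L1, PAX8 and GAD2 far to the right of the line and ALCAM, SCG2 and NEFL above it.

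Markers of other cell types were read beside these results, and their part in the results was not tested. Ventral progenitor factors other than FOXN4 were under 1 FPKM in all 4 libraries, with OLIG2 listed at 0 throughout, and their summed level was 0.184 and 1.247 FPKM in dorsal neurons, against 0.712 and 1.16 FPKM in RABC cultures. Of 18 ventral interneuron genes 4 were tested and UNCX rose, with 19.7 and 23.6 FPKM in dorsal neurons, against 2.63 and 1.30 FPKM in RABC cultures (log2 change 2.96 ± 0.73, adjusted p = 0.0239). Among 14 motor neuron genes 5 were tested and none was called by limma (2 at an unadjusted p under 0.05), and MNX1, ISL1 and CHAT stayed under 1 FPKM. Their summed level was 33.5 and 21.4 FPKM in dorsal neurons, against 4.43 and 12.6 FPKM in RABC cultures, with ETV4 at 16.97 and 13.6 FPKM in dorsal neurons, against 0.0833 and 5.02 FPKM in RABC cultures (adjusted p = 0.0591). Of 14 tested peripheral sensory neuron genes, some of which spinal dorsal neurons also use, 6 rose (2 without the H1 dorsal and 1 without the HUES9 RABC library) and 2 fell (0 without the H1 dorsal or the H1 RABC and 1 without the HUES9 dorsal or the HUES9 RABC library), with a summed level of 192 and 147 FPKM in dorsal neurons, against 80.1 and 33.9 FPKM in RABC cultures. RUNX3, PRDM12 and ISL1 of the same list stayed under 1 FPKM. UNCX was not called without the H1 dorsal, the HUES9 dorsal or the HUES9 RABC library (adjusted p 0.0681 to 0.186).

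Crest markers SOX10 and FOXD3 stayed under 1 FPKM, while TFAP2B, which crest and dorsal interneurons both use, had 65.04 and 42.6 FPKM in dorsal neurons, against 11.7 and 4.72 FPKM in RABC cultures (log2 change 2.65 ± 0.41, adjusted p = 0.00499). The other crest list member to rise was GAP43, given above as a growth cone protein. PAX3, given above as a dorsal progenitor factor, is also in that list and in its sum. The crest list summed to 366 and 454 FPKM in dorsal neurons, against 133 and 85.4 FPKM in RABC cultures, with 2 of 11 tested genes higher (1 without the H1 dorsal or the HUES9 RABC library) and none lower. Astrocyte genes were called at 3 higher (1 without the H1 dorsal or the HUES9 RABC library) and 1 lower (0 without the H1 dorsal or the HUES9 dorsal library) of 10 tested, with a sum of 223 and 265 FPKM in dorsal neurons, against 176 and 182 FPKM in RABC cultures. GFAP had 9.55 and 0.0267 FPKM in dorsal neurons, against 0.0526 and 0.0305 FPKM in RABC cultures (adjusted p = 0.174), held in the H1 dorsal library alone, and AQP4 was near 0. SPARCL1, a glial and neuronal matrix protein, had 21.2 and 4.18 FPKM in dorsal neurons, against 0.0859 and 0.104 FPKM in RABC cultures (log2 change 3.29 ± 0.61, adjusted p = 0.00925). The other astrocyte list members to rise were NFIA and SOX9, given above among birth-order and radial glia genes. Oligodendrocyte genes had 1 call among 5 tested, SOX8, with a sum of 48.8 and 158 FPKM in dorsal neurons, against 28.3 and 23.3 FPKM in RABC cultures. SOX8, a SOX10 relative, had 9.82 and 12.7 FPKM in dorsal neurons, against 2.38 and 3.36 FPKM in RABC cultures (log2 change 1.67 ± 0.41, adjusted p = 0.0237), and SOX10, MBP and MAG were under 1 FPKM. SOX8 was not called when any 1 of the 4 libraries was left out, SPARCL1 without the H1 dorsal, the H1 RABC or the HUES9 RABC library and TFAP2B without the H1 dorsal or the HUES9 RABC library (adjusted p 0.0512 to 0.179).

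Autonomic genes rose at 3 of 7 tested (0 without the H1 dorsal or the HUES9 RABC and 1 without the H1 RABC library, and 0 with no filter), among them TH and CHRNA3, with DBH under 1 FPKM and sums of 294 and 140.1 FPKM in dorsal neurons, against 21.03 and 7.65 FPKM in RABC cultures. Skeletal muscle, endothelial and epithelial lists held few tested genes, at 6 of 19, 2 of 14 and 4 of 15, and KRT8, a simple epithelial keratin, was the single call, with 1.27 and 0.245 FPKM in dorsal neurons, against 5.36 and 5.02 FPKM in RABC cultures (log2 change -1.88 ± 0.51, adjusted p = 0.034). Fibroblast and matrix genes fell at FN1 and FBN1 of 13 tested (0 without the H1 dorsal and 1 without the HUES9 dorsal, the H1 RABC or the HUES9 RABC library). FN1, fibronectin, had 7.91 and 12.9 FPKM in dorsal neurons, against 40.2 and 34.4 FPKM in RABC cultures (log2 change -1.78 ± 0.30, adjusted p = 0.00666). Of the roof plate and choroid list only MSX1 and FOXJ1 were tested, and MSX1 fell. POU5F1 and NANOG, the pluripotency factors, were under 1 FPKM in all 4 libraries, and of 4 tested pluripotency list genes LIN28A and DPPA4 fell (0 without the H1 dorsal and 1 without the H1 RABC or the HUES9 RABC library). Of 19 tested stress and p53 genes none was called (1 at an unadjusted p under 0.05), and of 8 immediate early genes FOS rose, with 4.76 and 8.76 FPKM in dorsal neurons, against 0.0806 and 0.16 FPKM in RABC cultures (log2 change 2.74 ± 0.55, adjusted p = 0.012). TH, CHRNA3, KRT8 and FOS were not called when any 1 of the 4 libraries was left out, FBN1 without the H1 dorsal, the HUES9 dorsal or the HUES9 RABC library, DPPA4 without the H1 dorsal, the H1 RABC or the HUES9 RABC library and FN1 without the H1 dorsal or the H1 RABC library (adjusted p 0.0521 to 0.245).

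Cholinergic genes summed to 42.9 and 42.8 FPKM in dorsal neurons, against 26.5 and 20.01 FPKM in RABC cultures, and 7 of 11 reached 1 FPKM in a dorsal library. CHAT, the acetylcholine-making enzyme, stayed under 1 FPKM, and the 3 risers of 7 tested, ACHE, CHRNA3 and CHRNB2, are an esterase and nicotinic receptor subunits. No member was called when any 1 of the 4 libraries was left out. TH, the first enzyme of dopamine synthesis, had 14.2 and 2.81 FPKM in dorsal neurons, against 0.265 and 0 FPKM in RABC cultures (log2 change 2.76 ± 0.69, adjusted p = 0.0258), mostly in H1, while DDC, DBH and SLC18A2 stayed under 1 FPKM. TH was not called when any 1 of the 4 libraries was left out (adjusted p 0.0532 to 0.205).

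Further genes were among the 20 largest rises. NSG2, a membrane protein of neuronal endosomes, had 363 and 153 FPKM in dorsal neurons, against 5.57 and 5.30 FPKM in RABC cultures (log2 change 5.20 ± 0.66, adjusted p = 0.00265). SEZ6, a neuronal surface protein, had 55.5 and 13.3 FPKM in dorsal neurons, against 0.119 and 0.085 FPKM in RABC cultures (log2 change 4.69 ± 0.53, adjusted p = 0.00181). CHL1, a relative of L1CAM, had 25.98 and 39.95 FPKM in dorsal neurons, against 0.395 and 0.717 FPKM in RABC cultures (log2 change 4.42 ± 0.51, adjusted p = 0.00191). IGFBP5, which binds insulin-like growth factors, had 185 and 268 FPKM in dorsal neurons, against 7.28 and 9.26 FPKM in RABC cultures (log2 change 4.60 ± 1.19, adjusted p = 0.0287). The 4 genes stood clear of RABC in both lines, with SEZ6 weaker in HUES9. PAX8, a PAX2 paralogue that dorsal inhibitory neurons also use in the mouse, had 61.7 and 42.1 FPKM in dorsal neurons, against 0.376 and 3.57 FPKM in RABC cultures (log2 change 4.37 ± 0.59, adjusted p = 0.00307), and its promoter stands above. IGFBP5 was not called when any 1 of the 4 libraries was left out (adjusted p 0.117 to 0.135).

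Further genes were among the 20 largest falls. ALPL, tissue-nonspecific alkaline phosphatase, had 0.894 and 2.86 FPKM in dorsal neurons, against 78.7 and 104 FPKM in RABC cultures (log2 change -5.08 ± 0.43, adjusted p = 0.00108). IGDCC3, a relative of PRTG, had 15.6 and 21.03 FPKM in dorsal neurons, against 158 and 186 FPKM in RABC cultures (log2 change -3.17 ± 0.17, adjusted p = 0.000132). FBN2, a fetal fibrillin, had 1.87 and 4.70 FPKM in dorsal neurons, against 37.3 and 40.4 FPKM in RABC cultures (log2 change -3.30 ± 0.47, adjusted p = 0.00358). GDF10, a BMP-family ligand, had 0.314 and 0.686 FPKM in dorsal neurons, against 31.4 and 11.8 FPKM in RABC cultures (log2 change -3.77 ± 0.60, adjusted p = 0.00549). None of these overlapped between groups. ISM1 and MMRN1, both secreted proteins, were under 1 FPKM in dorsal neurons, with 35.1 and 18.4 FPKM of ISM1 and 21.99 and 26.8 FPKM of MMRN1 in RABC cultures (adjusted p = 0.00172 and 0.0022). GDF10 was not called without the H1 dorsal library (adjusted p = 0.0607).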

How the data were processed

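RNA was extracted with a mirVana kit and libraries were made with a stranded TruSeq mRNA kit and sequenced on a NovaSeq instrument, per the labels' protocols. The submitters' processing notes name Trimmomatic, HISAT2, HTSeq, Cufflinks and the build hg18, without roles or versions. The deposited table gives 1 FPKM value per gene and library; 1 column that matched no sample was not used. Cell lines pair the libraries: the line difference in dorsal neurons and that in RABC cultures correlated at 0.28 across genes.

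Values were taken as log2(FPKM + 1) and fitted with limma 3.58.1 in R 4.3.3, with 1 mean for each of 9 groups and a term for cell line over all 15 libraries, a trended prior (5 residual and 3.48 prior degrees of freedom), Benjamini-Hochberg adjustment over all tested genes and calls at an adjusted p under 0.05. The filter of 1 FPKM was applied within the compared columns. For the test of the dorsal against the ventral change, it used the dorsal neuron and RABC columns only. FPKM values are not counts, so no count test was run. Relative depths of 0.958 to 1.056 were estimated from ratios of low values of the same gene between libraries. After scaling by these depths, 82.2% of 17463 low values were whole multiples, within 2%, of the smallest value of their gene.

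Genes and lists were chosen with earlier results of these data known. Named genes were 5 markers, the 20 largest called changes per direction with a group mean of at least 5 FPKM, the 10 largest differences in change per direction, and list members; 21 further list members were named after their values were seen, and some list members are not reported by name here. Promoter and microRNA sequences came from RefSeq tables and sites from GENCODE, on builds other than that of the deposited values. Alternatives changed the pseudocount, filter, scaling, prior, line term and libraries.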

Additional observations from a re-analysis of the deposited data

Results flagged for a closer look

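Genes whose dorsal change (dorsal neurons minus RABC) differed from the ventral change (ventral neurons minus RASS) in the limma fit are given here, the 10 largest in each direction. Values are differences between the 2 changes in log2(FPKM + 1). Only genes that reached 1 FPKM in a dorsal neuron or RABC library were tested. Both RASS libraries are those whose line labels were in doubt.

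With the dorsal change above the ventral change, PAX8 had 61.7 and 42.1 FPKM in dorsal neurons, against 0.376 and 3.57 FPKM in RABC cultures, and 0.498 and 0.0074 FPKM in ventral neurons, against 5.30 and 1.61 FPKM in RASS cultures (difference 6.10, dorsal change 4.37 against ventral change -1.72, adjusted p = 0.0398). It was high in dorsal neurons alone among these groups. SKOR1 (difference 5.38, dorsal change 5.71 against ventral change 0.33, adjusted p = 0.0158), MAB21L1 (difference 5.31, dorsal change 5.06 against ventral change -0.26, adjusted p = 0.00121), LMX1B (difference 4.39, dorsal change 3.47 against ventral change -0.92, adjusted p = 0.0398) and GAD2 (difference 3.98, dorsal change 4.07 against ventral change 0.09, adjusted p = 0.0401) were likewise high in dorsal neurons alone. LMX1B had 0.386 and 0.291 FPKM in ventral neurons, against 0.712 and 2.74 FPKM in RASS cultures. CELF2, an RNA-binding protein of neurons, had 30.6 and 27.1 FPKM in dorsal neurons, against 1.14 and 1.60 FPKM in RABC cultures, and 5.08 and 2.78 FPKM in ventral neurons, against 3.12 and 8.20 FPKM in RASS cultures (difference 4.02, dorsal change 3.66 against ventral change -0.36, adjusted p = 0.0398). GSX2 was listed at 0 in both ventral libraries (difference 3.72, dorsal change 3.70 against ventral change -0.03, adjusted p = 0.00926). HHIP, a hedgehog-binding inhibitor, was highest in RASS cultures, with 0.146 and 0.762 FPKM in dorsal neurons, against 1.70 and 1.11 FPKM in RABC cultures, and 0.432 and 0.314 FPKM in ventral neurons, against 23.3 and 44.1 FPKM in RASS cultures (difference 3.84, dorsal change -0.75 against ventral change -4.59, adjusted p = 0.0331). ALK, a receptor kinase of young neurons, had 1.95 and 2.40 FPKM in dorsal neurons, against 0.0136 and 0.152 FPKM in RABC cultures, and 1.77 and 1.56 FPKM in ventral neurons, against 6.28 and 8.02 FPKM in RASS cultures (difference 3.16, dorsal change 1.55 against ventral change -1.61, adjusted p = 0.016), and TSHZ2, a zinc finger factor, had 9.94 and 11.8 FPKM in dorsal neurons, against 0.685 and 0.492 FPKM in RABC cultures, and 5.59 and 3.57 FPKM in ventral neurons, against 5.98 and 5.12 FPKM in RASS cultures (difference 3.15, dorsal change 2.90 against ventral change -0.25, adjusted p = 0.0398).

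With the dorsal change below the ventral change, ALCAM, an adhesion molecule of axons, had 6.69 and 4.43 FPKM in dorsal neurons, against 8.83 and 12.6 FPKM in RABC cultures, and 45.98 and 70.8 FPKM in ventral neurons, against 0.658 and 2.19 FPKM in RASS cultures (difference -5.50, dorsal change -0.84 against ventral change 4.66, adjusted p = 0.0414). SCG2, a granin of secretory vesicles, rose on the dorsal side too, with 35.6 and 17.6 FPKM in dorsal neurons, against 3.60 and 2.21 FPKM in RABC cultures, and 195 and 181 FPKM in ventral neurons, against 0.396 and 1.19 FPKM in RASS cultures (difference -3.99, dorsal change 2.76 against ventral change 6.75, adjusted p = 0.0331). NEFL, the light neurofilament subunit, had 39.2 and 29.5 FPKM in dorsal neurons, against 31.7 and 36.7 FPKM in RABC cultures, and 476 and 715 FPKM in ventral neurons, against 52.4 and 48.99 FPKM in RASS cultures (difference -3.50, dorsal change 0.00 against ventral change 3.50, adjusted p = 0.0126), so the ventral neurons alone were far above the other groups. NRP2, a semaphorin receptor, had 2.09 and 3.14 FPKM in dorsal neurons, against 4.77 and 4.13 FPKM in RABC cultures, and 29.8 and 22.5 FPKM in ventral neurons, against 1.82 and 1.07 FPKM in RASS cultures (difference -4.08, dorsal change -0.60 against ventral change 3.48, adjusted p = 0.0241). WLS, which WNT ligands need to leave the cell, had 28.2 and 22.4 FPKM in dorsal neurons, against 59.7 and 43.1 FPKM in RABC cultures, and 40.98 and 56.2 FPKM in ventral neurons, against 5.65 and 2.45 FPKM in RASS cultures (difference -4.34, dorsal change -0.98 against ventral change 3.35, adjusted p = 0.0331). ZIC5 was listed at 0 in both ventral libraries, against 0.151 and 0.00661 FPKM in RASS cultures (difference -3.30, dorsal change -3.41 against ventral change -0.11, adjusted p = 0.0398). The others were CLDN1 (difference -3.52, dorsal change -2.86 against ventral change 0.66, adjusted p = 0.0331), RTL1 (difference -3.26, dorsal change -0.20 against ventral change 3.05, adjusted p = 0.0331), C9orf135 (difference -2.80, dorsal change -2.77 against ventral change 0.03, adjusted p = 0.0398) and AFAP1L2 (difference -2.74, dorsal change -2.05 against ventral change 0.68, adjusted p = 0.0331). CLDN1, C9orf135 and AFAP1L2 were under 1 FPKM in both RASS libraries, so they could hardly fall on the ventral route. Their RABC levels were 10.8 and 8.88 FPKM (CLDN1), 5.33 and 7.54 FPKM (C9orf135) and 4.58 and 5.68 FPKM (AFAP1L2). Each was under 1 FPKM in both dorsal neuron libraries.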

How the results depend on the processing

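The count of 2704 genes called between dorsal neurons and RABC cultures stayed within 1.5 times under every alternative with all 15 or with 13 libraries, at 2063 to 3403, and with the 4 libraries alone at 3061, but ran from 454 to 1809 with 1 library left out. Pairing by cell line was part of the fit; with no replicate block the count was 2894 and 7 of the 167 named calls were lost, those of CHRNA3, GJA1, HEYL, KRT8, NTN1, TH and ACHE. The 28 genes whose change differed from the ventral change became 53 with no replicate block, 0 with the 8 libraries alone, 72 with the RASS lines exchanged, 2 with a pseudocount of 0.1 or a filter of 5 FPKM, 100 with no filter, 77 with the filter over all 15 libraries, 63 with quantile normalization and 2 to 76 with 1 library left out (2 without the H1 RABC, 4 without the HUES9 ventral, 16 without the H1 ventral, 18 without the HUES9 RABC and 76 without the H1 dorsal library). The 304 genes between dorsal and ventral neurons became 57 with the 4 libraries alone, 169 with a pseudocount of 0.1, 148 with a filter of 5 FPKM and 89 to 398 with 1 library left out (89 without the HUES9 dorsal library). The cause was not tested. Higher calls were 58.8% of the main comparison, 74.1% with equal totals and 48.1% with quantile normalization. Of the 167 named calls none reversed; 91 were lost without the H1 dorsal, 78 without the HUES9 RABC, 51 without the H1 RABC and 42 without the HUES9 dorsal library, 36 with no filter, 16 with a pseudocount of 0.1 and 1 to 17 under the other alternatives. Of 96 list counts, 47 to 70 stayed within 1.5 times with 1 library left out and 70 to 96 otherwise. The files hold no counts, so no interval or floor from depth is given.

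Genes that were not called and changed sign had these log2 changes with 1 library left out: ASNS -1.60 to 1.13, BOC -0.13 to 0.95, CNP -0.022 to 0.32, COL1A1 -0.16 to 0.20, DCC -0.17 to 0.60, EN1 -1.91 to 0.80, EN2 -1.74 to 0.51, FOXJ1 -1.38 to 0.045, FOXN4 -0.39 to 0.29, GAS1 -1.14 to 0.40, KRT18 -2.76 to 0.16, MAOB -0.78 to 0.14, NEFL -0.29 to 0.28, PAX3 -0.62 to 1.48, PRPH -0.031 to 0.80, RTL1 -0.59 to 0.19, SOX2 -0.071 to 0.46, BARHL1 -1.66 to 0.12, HOXC10 -1.11 to 2.09, HOXD9 -1.18 to 1.84, PRDM13 -0.18 to 1.26, TLX1 -0.24 to 1.43, VIM -0.67 to 0.27. Signs also turned with equal totals for FOXN4 (0.013), NEFL (0.21) and VIM (0.015), and with quantile normalization for COL1A1 (-0.15), NEFL (0.018) and VIM (0.56).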

Other observations

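The 2 dorsal neuron cultures differed from each other in ways that the stage comparison did not show. With 1 library per line there is no test of these differences. By at least 2-fold in log2(FPKM + 1), 906 genes differed between the HUES9 and H1 dorsal neurons, against 634 between the HUES9 and H1 RABC cultures. Some posterior HOX genes, HOXA10, HOXC10 and HOXD9, were high in HUES9 alone, whereas HOXB9 was high in both lines. HOXA10 had 25.5 FPKM in HUES9 and 0.16 FPKM in H1 dorsal neurons, beside the HOXC10 and HOXD9 levels given above. MSX2, a BMP-responsive homeobox gene, had 43.02 FPKM in HUES9 and 2.50 FPKM in H1 dorsal neurons. In RABC cultures it had 11.4 FPKM in HUES9 and 50.8 FPKM in H1. Its dorsal level was thus higher than the RABC level in HUES9 and lower in H1. Peptide transcripts differed in both directions. SST, which encodes somatostatin, a marker of dorsal horn excitatory neurons, had 3.35 FPKM in HUES9 and 40.2 FPKM in H1 dorsal neurons, and PNOC, the precursor of nociceptin, had 0.994 FPKM in HUES9 and 17.7 FPKM in H1 dorsal neurons. CALCB, which encodes a calcitonin gene-related peptide, had 24.7 FPKM in HUES9 and 0.0278 FPKM in H1 dorsal neurons.

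Of 26 factors of brain regions, 9 were tested and PAX8, which spinal inhibitory neurons also use, was the only call (2 without the H1 dorsal library). Their summed level was 98.8 and 136 FPKM in dorsal neurons, against 38.6 and 63.6 FPKM in RABC cultures. GBX2, a factor of the border between midbrain and hindbrain, had 23.9 and 53.8 FPKM in dorsal neurons, against 6.62 and 21.6 FPKM in RABC cultures without a call (adjusted p = 0.253). OTX2 and NKX2-1 stayed under 1 FPKM in all 4 libraries. EN1, a midbrain and ventral interneuron factor, had 0.61 and 10.9 FPKM in dorsal neurons, against 2.28 and 11.6 FPKM in RABC cultures, and EN2 had 2.02 and 14.6 FPKM in dorsal neurons, against 3.48 and 23.5 FPKM in RABC cultures, without a call for either (adjusted p = 0.723 and 0.731). Among glutamate transmission genes 2 of 7 tested rose, SLC17A6 and SLC1A1 (1 without the H1 dorsal or the H1 RABC library), and SLC17A7 and SLC17A8, the other vesicular glutamate transporters, stayed under 1 FPKM.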
